A study of Mus musculus with 2 samples.

Results

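The keratin gene family was examined by total RNA sequencing of 2 libraries from whole embryonic limbs of the mouse strain B6NCrl, taken at day 14.5 of gestation. Members were the rows of both gene tables whose Ensembl identifier maps to a protein-coding mouse symbol of the form Krt followed by a number and at most 1 letter. There were 53 such genes among 43346 genes with an Ensembl identifier. Both libraries belong to 1 group, with no treatment or genetic change named in the labels, so no condition is compared and levels are described. The input of a library was 10 ng of RNA over 200 nt, from the 4 limbs of a pup. The labels give the 2 samples the same pup, pregnancy and donor identifiers, different collection days and a pooled sex. Counts over 4 Y-linked genes were 6631 in replicate 1 and 0 in replicate 2. Male RNA was thus found in replicate 1 alone, so the libraries did not hold the same tissue. Every later difference between the libraries goes along with this difference in sex and with the collection day, and cannot be told apart from either. Where separate animals are not assured, a spread over n = 2 measures only the spread between these samples. The libraries held 34193161 and 32879425 expected counts (estimated reads).

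Keratins are the intermediate filament proteins of epithelial cells, and a filament is built from equal numbers of type I and type II chains. The basal layer of stratified epidermis is known for KRT5 paired with KRT14, and cells that leave it switch to KRT1 with KRT10. Simple epithelia and the periderm, the flat outermost layer of embryonic skin, carry KRT8, KRT18 and KRT19, while hair keratins form the hardened shafts of hair and nails. By these roles the members were grouped as 3 basal, 11 suprabasal, 10 simple or periderm and 24 hair keratins, and 5 other members were left over. Of the epithelial and epidermal genes, Epcam stood at 45.6 TPM in replicate 1 against 46.3 in replicate 2 (TPM counts transcripts per fixed total of all transcripts and is a level corrected for length), Cdh1 at 45.0 and 43.0 TPM, and Trp63, the master regulator of stratified epithelium, at 44.8 and 41.4 TPM. Genes of epithelium and epidermis were therefore detected in both libraries, and Col1a1, a collagen of mesenchyme, stood at 2209 and 1940 TPM.

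The DNA just before the start of 4 members is shown first, as 1 basal, 2 suprabasal and 1 hair keratin whose levels are described below. They were chosen after their values were seen. The 250 bases before each start come from RefSeq on GRCm38.p6, all on the minus strand and written 5′ to 3′, at chr15:101712906-101713155 for Krt5, chr11:99389365-99389614 for Krt10, chr15:101869706-101869955 for Krt77 and chr15:101532821-101533070 for Krt84. Capitals mark ATAAA, part of the TATA box string TATAAA, where its first base lies 40 to 20 bases before the start. TATA boxes of other spelling were not searched for.
Krt5: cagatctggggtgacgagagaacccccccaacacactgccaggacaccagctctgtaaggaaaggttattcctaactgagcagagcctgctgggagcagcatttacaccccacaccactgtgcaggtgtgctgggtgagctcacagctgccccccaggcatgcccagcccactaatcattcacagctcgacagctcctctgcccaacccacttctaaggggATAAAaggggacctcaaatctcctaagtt
Krt10: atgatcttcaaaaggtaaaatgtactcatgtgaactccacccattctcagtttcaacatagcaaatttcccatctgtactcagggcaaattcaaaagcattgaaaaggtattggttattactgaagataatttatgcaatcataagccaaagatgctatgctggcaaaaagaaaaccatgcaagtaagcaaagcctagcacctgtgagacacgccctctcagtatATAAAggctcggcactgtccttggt
Krt77: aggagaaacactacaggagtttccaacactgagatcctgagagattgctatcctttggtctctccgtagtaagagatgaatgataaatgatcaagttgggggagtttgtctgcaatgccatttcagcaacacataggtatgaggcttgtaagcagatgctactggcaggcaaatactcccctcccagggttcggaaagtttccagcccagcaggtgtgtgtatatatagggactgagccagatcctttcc
Krt84: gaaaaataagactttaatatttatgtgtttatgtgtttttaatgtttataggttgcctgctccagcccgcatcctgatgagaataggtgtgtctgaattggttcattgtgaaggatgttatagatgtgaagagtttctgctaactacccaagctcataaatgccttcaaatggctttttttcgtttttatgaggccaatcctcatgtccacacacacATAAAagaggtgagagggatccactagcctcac
ATAAA began 29 bases before the start in Krt5, 25 in Krt10 and 33 in Krt84. It did not occur in that stretch of Krt77, which reads tatatata there, so a TATA box in Krt77 is not excluded. RefSeq windows of 300 bases (250 before and 50 after a start) matched 36 of 53 members with 37 windows, of which 4 start more than 100 bases from the start in the GENCODE annotation. In that stretch, on the strand of the gene, ATAAA occurred in 20 of 37 keratin windows, or 54.1%, against 4.25% of all 32851 windows. The longer motif TATAAA, searched on both strands of the whole window and overlapping the first, occurred in 19 of 37, or 51.4%, against 13.6%. ATAAA occurred in 5 of 12 windows of members that reached 1 TPM in either library and in 15 of 25 windows of the rest. All 4 windows that start more than 100 bases away, of Krt7, Krt8, Krt14 and 1 of Krt13, are among those 12 and lack it. The 17 members without a window include Krt1, Krt4 and Krt15. These shares therefore do not show whether ATAAA follows the level. A match is a string of letters and does not show a site in use.

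Keratin RNA in the limb was dominated by a few genes of the basal and suprabasal groups. Of 53 members, 18 reached 1 TPM in both libraries, Krt13 did so in replicate 1 alone, and 34 were under it in both. The summed level was 1441 TPM in replicate 1 against 1212 in replicate 2, or 0.144% and 0.121% of all TPM. The 5 highest members, Krt14, Krt4, Krt5, Krt1 and Krt15, held 74.6% and 76.4% of it, and the 10 highest held 94.3% and 95.4%. In bulk tissue, fewer cells of a type and less RNA per cell cannot be told apart.

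**Figure D1:**
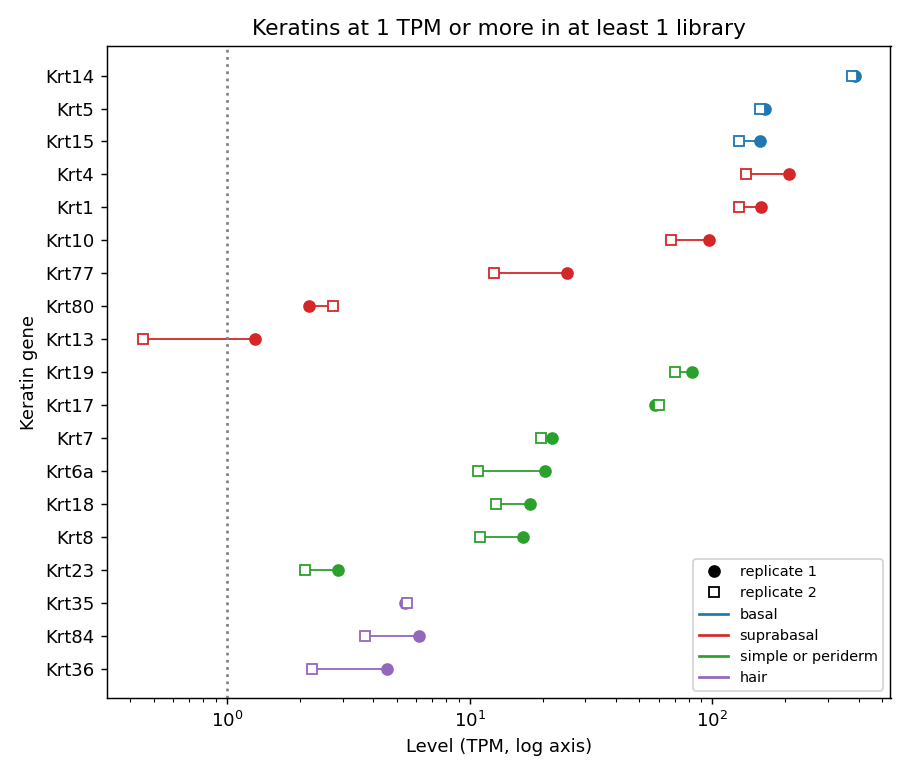
TPM, on a log axis, of each keratin that reached 1 TPM in either library, with filled circles for replicate 1, open squares for replicate 2 and colour for the keratin group; the dotted line marks 1 TPM. Krt14 stands alone at the top, and the gap between libraries is wider for Krt77, Krt6a and Krt36 than for Krt14, Krt5 and Krt17.

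The basal keratins had the highest summed level of the groups, 709 TPM in replicate 1 against 660 in replicate 2 (684 ± 34.8 TPM, SD, n = 2). Krt14, the type I chain of the basal layer (GRCm38, chromosome 11, 100203162 to 100207548, minus strand), stood at 386 and 374 TPM and was the highest keratin in both libraries. Krt5, its type II partner (chromosome 15, 101707070 to 101712898, minus strand), stood at 165 and 157 TPM. Krt15, a second type I keratin of the basal layer (chromosome 11, 100131758 to 100135928), stood at 157 and 129 TPM. The partners were thus unequal in RNA: Krt14 exceeded Krt5 by 2.36-fold, a log2 ratio of Krt5 over Krt14 of −1.24 ± 0.02 (SD, n = 2, on TPM + 0.1), and the type I excess of the basal layer was larger still with Krt15 added. The level of Krt14 includes a transcript without a coding sequence. Its coding transcript Krt14-201 alone stood at 294 and 298 TPM, so the excess over Krt5 was smaller but remained. The log2 ratio of Krt15 over Krt14 was −1.29 in replicate 1 and −1.54 in replicate 2. An exact permutation of signs over 2 libraries gives no p under 0.5, so ratios are given with their SD and no test.

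The suprabasal group reached 491 TPM in replicate 1 against 350.4 in replicate 2, and 5 of its 11 members reached 1 TPM in both. Krt1 (chromosome 15, 101845426 to 101850794) stood at 159 and 128 TPM, and its partner Krt10 (chromosome 11, 99385254 to 99389364) at 96.9 and 67.6 TPM. In this pair the type II chain was the higher one, with a log2 ratio of Krt1 over Krt10 of 0.82 ± 0.15, opposite in sign to the basal pair. Krt77, a type II keratin of embryonic epidermis (chromosome 15, 101858731 to 101869705, next to Krt1), stood at 25.2 and 12.6 TPM. Krt80, a type II keratin found widely in differentiating epithelia, stood at 2.18 and 2.73 TPM. Krt2, a keratin of the late suprabasal layers, stood at 0.260 and 0.350 TPM, and the other 3 epidermal suprabasal members were lower, among them Krt9, the keratin of palm and sole skin, at 0.04 TPM and 0. Suprabasal keratin RNA thus lay mostly in Krt1, Krt10, Krt77 and the Krt4 described next. Krt2 was under 1 TPM in both libraries but not at 0, with 15 and 19 counts.

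Krt4, best known from the suprabasal layers of mucosal epithelia such as the oesophagus, was the second highest keratin of the limb by mean level. It stood at 206 TPM in replicate 1 against 138 in replicate 2 (172 ± 48.4 TPM, SD, n = 2; chromosome 15, 101918535 to 101924735, minus strand). Its mucosal partner Krt13 stood at 1.31 and 0.450 TPM, so Krt4 was present almost without it. Krt12, the corneal keratin, was at 0.05 and 0.08 TPM. No stretch of 50 nt of the Krt4 transcripts occurred in transcripts of any other gene in the annotation, so this level is not shared with a similar sequence there. The order of Krt4, Krt5, Krt1 and Krt15, at means of 172, 161, 144 and 143 TPM, was not the same in both libraries, and neighbours in it did not differ beyond their spread. Krt14 lay above and Krt10, at 82.2 ± 20.7 TPM, below all 4 in both libraries.

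Simple and periderm keratins summed to 221 TPM in replicate 1 against 187 in replicate 2, and 7 of the 10 members reached 1 TPM in both. Krt19, a type I keratin of simple epithelia and periderm, led at 82.1 and 69.9 TPM. Krt17, known from periderm, appendage buds and wounded epidermis, stood at 58.1 and 60.3 TPM, the only one of the 7 whose TPM was the larger in replicate 2, although its counts were not called different. Krt7 stood at 21.9 and 19.7 TPM, and Krt6a, a type II partner of Krt17 in periderm and wounds, at 20.5 and 10.8 TPM. The classical pair of simple epithelia was nearly balanced, with Krt8 at 16.6 and 11.01 TPM, Krt18 at 17.65 and 12.9 TPM, and a log2 ratio of Krt8 over Krt18 of −0.15 ± 0.10. Krt23 stood at 2.88 and 2.10 TPM. Krt16 and Krt20, a keratin of Merkel cells, stood at 0.460 and 0.220 TPM and at 0.290 and 0.200 TPM.

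Hair keratins were low, but not all were near zero. Of 24 hair keratins, 3 reached 1 TPM in both libraries, and all 3 belong to the 15 keratins of hair cortex and cuticle. Krt74 and Krt85, also planned as hair keratins, were not among the members, so the counts and sums given here leave them out. Krt35, an early keratin of the hair matrix (chromosome 11, 100092193 to 100096241), stood at 5.40 and 5.52 TPM. Krt84, a type II hair and nail keratin (chromosome 15, 101525026 to 101532820), stood at 6.20 and 3.71 TPM, and Krt36, a type I keratin, at 4.57 and 2.25 TPM. These 3 held most of the group's summed 19.7 and 14.2 TPM. The 7 keratins of the inner root sheath and the 2 of the companion layer and hair canal were under 1 TPM, led by Krt72 at 0.780 and 0.300 TPM and Krt75 at 0.740 in both. Of 56 protein-coding genes of keratin-associated proteins, which embed hair keratins in the shaft, none reached 1 TPM in either library and 49 were listed at 0 in both. Hoxc13, a regulator of hair and nail keratin genes, stood at 4.68 and 5.90 TPM. It was picked for its known role once its level had been read. Of the 12 hair placode and follicle genes it belongs to, 9 reached 1 TPM in both libraries. Shh, at 0.05 and 0 TPM, Foxi3, at 0.59 and 0.29 TPM, and Dkk4, at 1.01 and 0.89 TPM, did not.

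At the low end, 8 members were listed at 0 in both libraries, namely Krt6b, Krt26, Krt39, Krt40, Krt71, Krt81, Krt82 and Krt88. A count of 0 allows up to 3 counts, which for these genes is 0.0439 to 0.174 TPM depending on length. The 5 members outside the groups all lay under 1 TPM, led by Krt24 at 0.05 and 0.270 TPM and Krt222 at 0.04 and 0.270 TPM. The highest of the 34 members under 1 TPM in both libraries had a mean of 0.740 TPM, and their median was 0.0625 TPM. Floors cover counting error only, since no molecular identifiers are recorded.

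Members lie in clusters by type. All 27 type I genes on chromosome 11 lay on the minus strand within 1037 kb, and the 25 type II genes lay on chromosome 15 within 657 kb, followed by Krt18, the type I gene that lies in the type II cluster. The 19 members at 1 TPM in at least 1 library were spread through both clusters, in 11 runs of neighbouring members. The longest run was Krt35, Krt36, Krt13, Krt15 and Krt19, which joins hair, suprabasal, basal and simple keratins. Krt1 with Krt77, Krt6a with Krt5, Krt80 with Krt7, and Krt8 with Krt18 were the runs of 2. Genes at or near 0 stood beside high ones, such as Krt9, at 0.04 TPM and 0, between Krt19 and Krt14. Summed over the family, type I RNA exceeded type II RNA, at 815 and 726 TPM against 626 and 486 TPM, a log2 ratio of type II over type I of −0.48 ± 0.14.

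**Figure D2:**
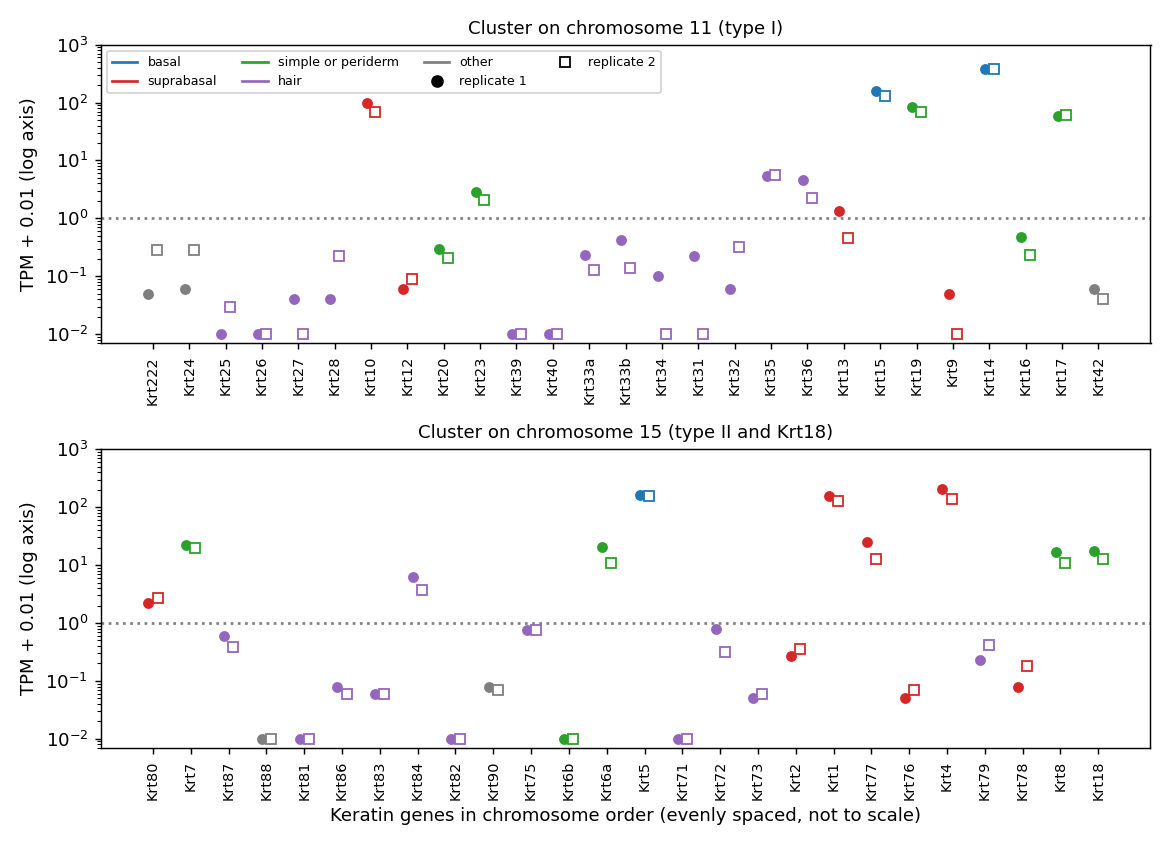
TPM + 0.01 on a log axis for each of the 53 members in chromosome order, evenly spaced, with filled circles for replicate 1, open squares for replicate 2 and colour for the group; the dotted line marks 1. High and near-zero keratins alternate along both clusters, with Krt10, Krt15, Krt19, Krt14 and Krt17 rising from the type I cluster and Krt5, Krt1 and Krt4 from the type II cluster.

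Sequence sharing limits some members. Of the stretches of 50 nt in the annotated transcripts of Krt6a, 45.7% also occurred in another gene, most of them in Krt6b, and of those of Krt6b 50.1% did. Krt6b was nevertheless listed at 0 in both libraries and the reads were assigned to Krt6a, at 1018 and 501 counts. For Krt16 the share was 37.6%, for Krt8 26.9%, all with the processed pseudogene Krt8-ps, which the tables used here do not list, for Krt14 13.9%, and for Krt5 8.52%. Krt1, Krt10, Krt77, Krt19 and Krt84 shared none. The hair keratins Krt81 and Krt86 shared 37.7% and 43.3%, and both were under 1 TPM.

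Most of the 14 members whose mean reached 5 TPM have a single transcript in the tables. Of the other 5, Krt15 and Krt35 had over 90% of their TPM in 1 coding transcript in both libraries. For Krt14 the coding transcript Krt14-201 held 76.0% and 79.7%, and a transcript typed as processed without a coding sequence held the remaining 24.0% and 20.3%. For Krt19 the coding transcript Krt19-201 held 64.4% and 65.2%, and the processed transcript Krt19-203 of 823 nt held 35.6% and 34.8%. Krt7 was split over 6 transcripts, with Krt7-201 at 37.9% and 34.6% and the short coding transcript Krt7-204 of 642 nt at 36.6% and 30.0%. Part of the level of Krt14, Krt19 and Krt7 was thus assigned to transcripts that are short or carry no coding sequence. The pair ratios and the sums by type include these transcripts.

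Keratins differed between the libraries, and mostly in 1 direction. The exact binomial test used here asks whether counts differ beyond counting error given the library sizes, so it compares these 2 libraries and not conditions, and with 1 library on each side there is no replicate check. With Benjamini-Hochberg adjustment over 19153 genes and a threshold of 0.05, 14.8% of all genes were lower in replicate 2 and 12.7% higher. Of the 31 keratins with 10 or more counts, 15 were lower and none was higher, and the median log2 ratio (replicate 2 over 1) was −0.53 against −0.0008 for all genes tested. The 22 members with fewer counts were not tested. For the next test, edgeR took its common dispersion from these same 2 libraries treated as 1 group. That spread is therefore not independent of the difference tested and does not stand for variation between animals. When the spread of the typical gene is added, by edgeR's exact test at a common dispersion, 0.491% of 16920 genes were lower and 0.177% higher, and of 22 keratins tested 4 were lower: Krt77, Krt6a, Krt36 and Krt13. At an unadjusted p under 0.05 that test had 9 of the 22 lower and none higher, against 4.08% and 2.54% of all 16920 genes.

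**Figure D3:**
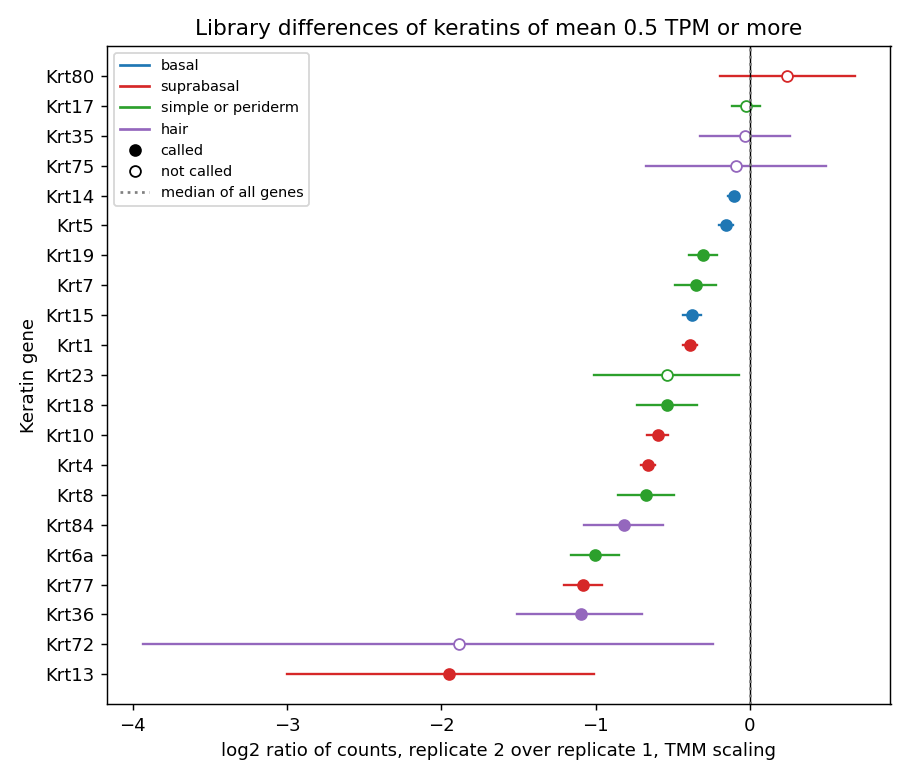
Log2 ratio of counts in replicate 2 over replicate 1 after TMM scaling for keratins whose mean reached 0.5 TPM and whose summed counts reached 10, with exact 95% intervals for counting error; filled points passed the exact binomial test and the dotted line is the median of all genes. Krt14 and Krt5 lie close to 0 at −0.10 and −0.15, and Krt77, Krt36 and Krt13 lie at −1.08, −1.10 and −1.95. Scaled to the basal keratins, a sum that holds them, Krt14 and Krt5 lie at 0.07 and 0.02.

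The size of the difference varied by keratin. Among basal keratins Krt14 fell by 0.10 on the log2 scale (95% interval −0.14 to −0.07), Krt5 by 0.15 (−0.20 to −0.11) and Krt15 by 0.38 (−0.43 to −0.32). Scaled to the basal keratins, Krt14 and Krt5 turned positive. These genes are part of the sum used for that scaling, so their signs under it are no test of them. Among suprabasal keratins Krt1 fell by 0.39 (−0.43 to −0.34), Krt10 by 0.60 (−0.67 to −0.53) and Krt4 by 0.66 (−0.71 to −0.61, adjusted p = 3.7e-172 by the exact binomial test). Krt77 fell by 1.08 (−1.21 to −0.96), which is 2.12-fold, with an adjusted p of 5.5e-68 by the exact binomial test and 0.00033 by edgeR's exact test. Krt13 fell by 1.95 on 47 and 12 counts (−3.00 to −1.01). These intervals do not overlap between Krt14 and Krt4, Krt10 or Krt77, but they cover counting error only. By edgeR's exact test Krt4 and Krt10 had adjusted p of 0.11 and 0.20, and Krt1, Krt15, Krt5 and Krt14 were also not called.

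Simple, periderm and hair keratins were mixed. Krt6a fell by 1.00 (−1.16 to −0.85), with an adjusted p of 0.0026 by edgeR's exact test. Krt8 fell by 0.67 and Krt18 by 0.54, and Krt7 and Krt19 by 0.35 and 0.30, by the exact binomial test. By edgeR's exact test Krt8 and Krt18 had adjusted p of 0.17 and 0.49 and were not called, nor were Krt7 and Krt19. Krt17 was not called, with a log2 ratio of −0.03 (−0.12 to 0.07), and its partner Krt6a was. The log2 ratio of Krt6a over Krt17 in TPM was −1.50 in replicate 1 and −2.47 in replicate 2. Krt23 was not called by the exact binomial test, at −0.53 (−1.01 to −0.07; adjusted p = 0.074). Of the hair keratins, Krt36 fell by 1.10 (−1.51 to −0.70; adjusted p = 0.027 by edgeR's exact test) and Krt84 by 0.82 (−1.08 to −0.56; adjusted p = 0.080 by edgeR's exact test, not called), while Krt35 stood at −0.03 (−0.32 to 0.26) and was not called. Krt80 stood at 0.24 (−0.19 to 0.68) and was not called.

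Within keratin RNA, the basal share was larger and the suprabasal share smaller in replicate 2. Basal keratins took 49.2% of summed keratin TPM in replicate 1 and 54.4% in replicate 2, and suprabasal keratins 34.1% and 28.9%. The simple and periderm group took 15.3% and 15.4%, and hair keratins 1.37% and 1.17%. Krt14 alone took 26.8% and 30.9%, and Krt4 14.3% and 11.4%. A scaling to the summed counts of Krt5, Krt14 and Krt15 was chosen after the data were seen. By the exact binomial test it had 13 keratins lower in replicate 2 and 3, Krt14, Krt17 and Krt24, higher. Of 19153 genes, 4.78% were lower and 43.1% higher under it. Krt5, Krt14 and Krt15 make up that sum, so they cannot all be lower or all be higher. Their calls there, Krt14 higher and Krt15 lower, are therefore no test of these genes. Under that scaling Krt77 was at −0.91, Krt6a at −0.83 and Krt4 at −0.49, and the median of all genes moved to 0.17.

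**Figure D4:**
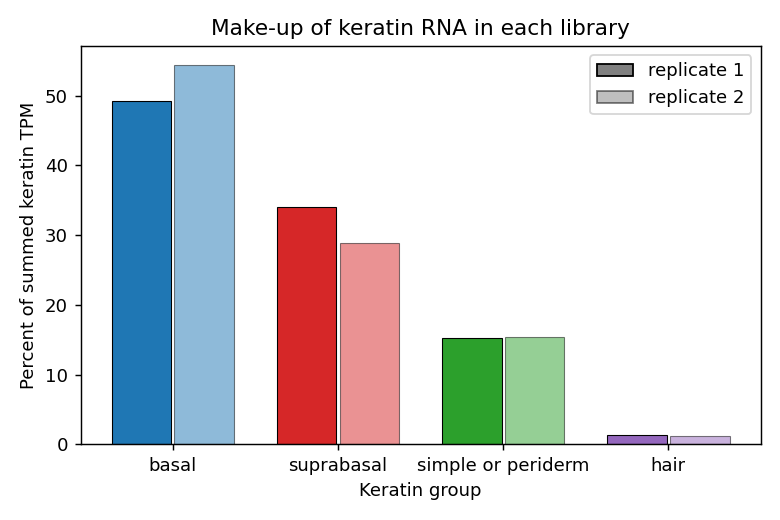
Percent of summed keratin TPM held by each keratin group, with full colour for replicate 1 and pale colour for replicate 2, on an axis from 0. The basal bar is higher in replicate 2 and the suprabasal bar lower, and the simple or periderm bars stand at 15.3% and 15.4%.

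Other genes of epidermis were counted list by list with the same exact binomial test, and were chosen with earlier results of these data known. By that test 14.8% of all 19153 genes were lower in replicate 2 and 12.7% higher. It covers counting error only, so genes of high counts are called at small ratios. Of 13 late suprabasal and cornified envelope genes, 12 had enough counts and all 12 were lower in replicate 2, with a median of −0.84. By edgeR's exact test 5 of 11 were lower, against 0.491% of all 16920 genes. The list was led by Krtdap, a secreted protein of suprabasal cells, at 1101 and 636 TPM and by Dmkn at 224 and 129.5 TPM. Of 12 genes of desmosomes and of the plakins that anchor keratin to them, 9 were lower and 2 higher, with a median of −0.25, led by Perp at 473 and 368 TPM. Of 6 genes of hemidesmosomes, which anchor KRT5 and KRT14 to the basement membrane, 1, Cd151, was lower and none higher, with a median of −0.07 and Itga6 at 47.9 and 49.9 TPM. Of 11 epidermal regulators, 7 were lower and 2 higher, with a median of −0.21. By edgeR's exact test none of the 12 desmosome, 6 hemidesmosome and 11 regulator genes was called (4, 0 and 1 lower and 1, 0 and 0 higher at an unadjusted p under 0.05, where all genes had 4.08% lower and 2.54% higher).

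Markers listed for other cells were set beside the keratins. Calls are by the exact binomial test unless edgeR is named. That binomial test, which covers counting error only, had 14.8% of all 19153 genes lower in replicate 2 and 12.7% higher. The simple epithelium list holds Epcam and Cdh1, given above among the epithelial and epidermal genes, so it is not separate from epidermis. Of 12 hair placode and follicle genes, 11 were tested, 1, Msx2, was higher and none lower, with a median of 0.05 and a summed 123 and 141 TPM. Of 5 Merkel cell markers 2 reached 1 TPM in both libraries; Piezo2 stood at 43.65 and 49.98 TPM, but Atoh1, the defining regulator, likewise picked later, stood at 0.110 and 0.05 TPM, and none of the 4 tested was called. Of 8 markers of simple epithelium 3 of 7 tested were lower and 1 higher, with a median of −0.40. Of 6 mesenchyme genes 5 were lower and 1 higher (−0.24), of 4 endothelial genes none was called (−0.07), and of 4 smooth muscle genes 2 were lower (−0.33). By edgeR's exact test no gene of the hair placode, Merkel cell, simple epithelium, mesenchyme, endothelium and smooth muscle lists was called, with adjusted p = 0.596 for Msx2. At an unadjusted p under 0.05 that test had 1 mesenchyme and 2 smooth muscle genes lower and 1 hair placode gene higher. Of all 16920 genes it had 4.08% lower and 2.54% higher. The summed late suprabasal list was 1479 and 870.4 TPM, and the summed hemidesmosome list 178 and 179.6 TPM. The part of these cell types in the keratin differences was not tested.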

How the data were processed

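Total RNA of 2 limb libraries was measured. The authors' tables rest on mm10 and GENCODE M4, 1 replicate each, from transcriptome alignments, per the sample notes in the labels. Which program made them is not given here. Per gene, the authors deposited expected counts (estimated reads) and TPM with posterior means, which sum to an equal total per library. The FPKM deposited by the authors served as an alternative, and the percent of a gene's TPM per transcript was also deposited by the authors. Deposited lengths were used for floors.

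Symbols, types and positions came from GENCODE M21 on GRCm38, which had entries for 42462 of 43346 identifiers, and promoter windows from RefSeq. Genes were typed I or II by cluster, except Krt18. The members, groups, lists and tests were chosen with earlier results of these data known. Every member with a mean of 1 TPM or more was named, and below that the 2 highest of each group. Of the lists only some members are named, not always the highest. Others are named after their values were seen.

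Counts were rounded to whole numbers and tested for genes whose summed counts reached 10, by an exact binomial test, two-sided, at TMM library sizes; p-values were adjusted by Benjamini-Hochberg and called at 0.05. A quasi-likelihood fit has no residual degrees of freedom here. The test was checked on simulated data that held counting noise only, so that check does not cover other variation between libraries. Library sizes hold no counts of the 96 spike-ins. By the exact binomial test 2835 genes were lower and 2439 higher with TMM, 2233 and 3334 with total counts, and 1871 and 4167 with spike-in counts. Ratios used log2(TPM + 0.1). Tools were Python 3.11.15, numpy 2.4.6, pandas 2.3.3, scipy 1.17.1, matplotlib 3.10.9, R 4.3.3, edgeR 4.0.16 and DESeq2 1.42.0 (size factors only).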

Additional observations from a re-analysis of the deposited data

How the results depend on the processing

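With another minimum, unit or library the number of keratins detected ranged from 14 (5 TPM) to 19. Summed FPKM, a unit not scaled to a fixed total, was 454 for basal, 279.55 for suprabasal, 135 for simple or periderm and 11.3 for hair keratins. With Krt4 and Krt13 counted as simple or periderm, an alternative chosen after seeing the data, the suprabasal sum was 248 TPM and the simple or periderm sum 377 TPM, so the order of these groups rests on Krt4. The 6 planned ratios kept their sign with a pseudocount of 1, with posterior mean TPM and in each library alone. The 15 keratins lower in replicate 2 were the same genes with DESeq2 size factors, total counts, no count minimum and a minimum of 50. With spike-in counts 14 of them remained, Krt14 being lost (log2 ratio −0.04, adjusted p = 0.061 by the exact binomial test). By edgeR's exact test 4 were lower. Scaled to the basal keratins, an alternative chosen after seeing the data, 3 were called higher, namely Krt14, Krt17 and Krt24. Krt14 is part of the sum it was scaled to, so its call there is no test. That scaling moves every log2 ratio up by the same amount (the median of all genes to 0.17), which took Krt14 to 0.0703, Krt17 to 0.15 and Krt5, not called there, to 0.0196. No paired analysis was possible because there is 1 group. Depth limits the members under 1 TPM.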
